A study of Mus musculus with 4 samples.

Results

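A total of 5 genes of the bone morphogenetic protein (BMP) response were followed over single cells of the mouse brain: Bmpr1a, a type I BMP receptor, and Id1, Id2, Id3 and Id4, the inhibitor of DNA binding genes. They were chosen by name, are 5 of the 15305 gene rows of the count table, and all 5 had counts in at least 3 of the 82 cells. The mice were Penk-Cre Ai9 animals, whose Cre is driven by Penk and removes a block before the red protein tdTomato, so a red cell is one in which the driver was active at some time. The genotype is given as WT in every sample, and the age and number of the mice are not given in the sources used here. Cells were dissociated from subventricular zone and striatal tissue and sorted singly into wells, in dataset A as tdTomato+ and CD11b- (CD11b is a surface protein of microglia) and in dataset B as tdTomato+ with no other gate. Each dataset has a sample labelled as neuroblast and another labelled as quiescent neural stem cell, but the columns carry only dataset, plate and well, so those names could not be tied to cells.

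BMP ligands bind pairs of type I and type II receptors. The active type I receptor phosphorylates SMAD proteins, which enter the nucleus with SMAD4 and switch on the Id genes, among the best known direct targets. Id proteins have a helix-loop-helix but no DNA-binding stretch, so they tie up E proteins and keep them from pairing with proneural factors. In the adult subventricular zone, BMP signalling and Id proteins are known for holding stem cells back from division and from neuronal differentiation. The measurements here are mRNA counts, and neither SMAD phosphorylation nor BMP protein was measured.

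Cells were put into classes by Sox11, a transcription factor of immature neurons, and Enpp2, which encodes the secreted enzyme autotaxin and is abundant in choroid plexus epithelium. A total of 41 cells had 10 or more Sox11 counts (16 from dataset A, 25 from dataset B) and are called Sox11-positive. Another 30 cells had 1% or more of their counts from Enpp2 (14 and 16) and are called Enpp2-rich. Of the other cells, 2 met both criteria and 9 met neither, and all of these were from dataset A. At the borders, the lowest Sox11 count inside the class was 20 and the highest outside it was 7, and the lowest Enpp2 share inside was 1.25% and the highest outside 0.999%. In the median Sox11-positive cell, 12 of 15 neuroblast markers reached 10 counts, with Sox11, which defines the class, among the 15. In the median Enpp2-rich cell, 9 of 14 choroid plexus markers (a list that holds Enpp2, the gene of the rule) and 3 of 15 astroglial and stem cell markers did, and the neuroblast genes Dlx1, Dlx2, Stmn2, Sp8 and Sp9 and the astroglial genes Aqp4 and Htra1 were at 0 in all 30. Gfap was at 0 in the 9 cells of neither class, 5 of which had 10 or more of the 15 astroglial markers. Against its class, the Sox11-positive cell in well G7 of dataset A held 20 Sox11 counts and took 4.71% of its counts from 12 microglia markers. The Sox11-positive cell in well H6 of dataset A took 80.1% of its counts from choroid plexus markers, and values that rest mostly on either cell are also given without it. Depth ran from 530630 to 7765650 counts per cell with a median of 2046540, and levels are given as CPM, a gene's counts out of every 1000000 counts of the cell or pool. Exact intervals of shares describe how many cells of these sorts were counted and cover counting error only. Cells of 1 sort are not replicates, and without molecular identifiers the reads of a cell are not independent molecules.

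Per the GRCm39 gene models, Bmpr1a lies at chr14:34132687-34225379 on the minus strand, with 13 exons and a canonical transcript of 6073 bases. The Id genes are short: Id1 lies at chr2:152566218-152579544 (plus strand, 2 exons, 1154 bases), Id2 at chr12:25143798-25147282 (minus strand, 3 exons, 2463 bases), Id3 at chr4:135870808-135873066 (plus strand, 3 exons, 1278 bases) and Id4 at chr13:48414558-48419502 (plus strand, 3 exons, 3995 bases). The 250 bases before the start of each gene are shown for Id2 and Id3, which appeared in the same cells more than any other pair of Id genes, and for Id4 and Bmpr1a, which did not follow them. The sequences are RefSeq's, build GRCm38.p6, read in the direction of the gene, for 4 of the 5 genes, at chr12:25096093-25096342 (minus strand), chr4:136143572-136143821 (plus strand), chr13:48260866-48261115 (plus strand) and chr14:34502547-34502796 (minus strand) in the order printed. Capitals mark every match, on either strand, to GGCGCC (a GC-rich SMAD motif), CAGAC (the core of the SMAD4 motif), CANNTG (the E-box bound by basic helix-loop-helix proteins) or TATAAA (the TATA box).
Id2: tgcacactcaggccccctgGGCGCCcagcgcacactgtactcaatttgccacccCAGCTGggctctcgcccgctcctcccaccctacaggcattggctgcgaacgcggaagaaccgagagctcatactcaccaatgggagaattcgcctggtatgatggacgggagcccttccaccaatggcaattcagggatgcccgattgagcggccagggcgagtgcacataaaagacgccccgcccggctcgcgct
Id3: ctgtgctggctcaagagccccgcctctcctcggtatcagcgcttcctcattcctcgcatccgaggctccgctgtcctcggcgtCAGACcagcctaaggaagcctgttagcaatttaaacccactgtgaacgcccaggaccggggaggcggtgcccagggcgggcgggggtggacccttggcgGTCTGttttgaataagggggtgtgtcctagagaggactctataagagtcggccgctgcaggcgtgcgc
Id4: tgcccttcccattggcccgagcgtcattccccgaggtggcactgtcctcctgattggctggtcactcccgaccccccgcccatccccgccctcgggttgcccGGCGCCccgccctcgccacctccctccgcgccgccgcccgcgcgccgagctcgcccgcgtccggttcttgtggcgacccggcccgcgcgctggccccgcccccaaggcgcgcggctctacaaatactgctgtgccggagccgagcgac
Bmpr1a: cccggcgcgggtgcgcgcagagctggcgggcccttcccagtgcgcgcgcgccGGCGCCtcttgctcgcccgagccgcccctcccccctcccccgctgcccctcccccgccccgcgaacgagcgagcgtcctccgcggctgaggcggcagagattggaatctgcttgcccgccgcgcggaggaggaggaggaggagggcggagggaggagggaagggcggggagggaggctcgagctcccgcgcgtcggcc

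GGCGCC stood once in Id2 (231 bases before the start), once in Id4 (148 before) and once in Bmpr1a (198 before), and was not among the 250 bases of Id3. Over all 32841 RefSeq mouse promoters of the same length, 9.59% held it. CAGAC stood only in Id3, at 167 bases before the start and, on the other strand, at 68 before, and 42.2% of all promoters held it. The only E-box was CAGCTG in Id2, 196 bases before the start, against 66.2% of all promoters with a match to CANNTG, and none of the 4 held TATAAA, which 12.4% of all promoters did. Id2 and Id3, both at 62.8% G and C, were less GC-rich than Id4 (75.6%) and Bmpr1a (78.8%).

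Bmpr1a mRNA was found in 3 of 82 cells (3.66%, exact Clopper-Pearson 95% interval 0.761% to 10.3%), and the other 79 had 0 counts. The Sox11-positive cell in well C1 of plate PL4 (dataset B) held 2572 counts, or 1725 CPM, and the Enpp2-rich cell in well H6 of plate P3 (dataset B) held 2498, or 1118 CPM. A cell meeting both criteria, in well F6 of dataset A, held 97, or 81.7 CPM. The receptor was thus seen in 1 of 41 Sox11-positive cells (2.44%, 0.0617% to 12.9%), in 1 of 30 Enpp2-rich cells (3.33%, 0.0844% to 17.2%) and in 0 of 9 cells of neither class, where the exact upper limit is 33.6%. Each of the 3 cells also had 10 or more counts of Id4 (13, 14 and 396), which is 3 of the 13 cells with Id4. In the other direction, 33 of the 36 cells with an Id gene had no Bmpr1a count.

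**Figure D1:**
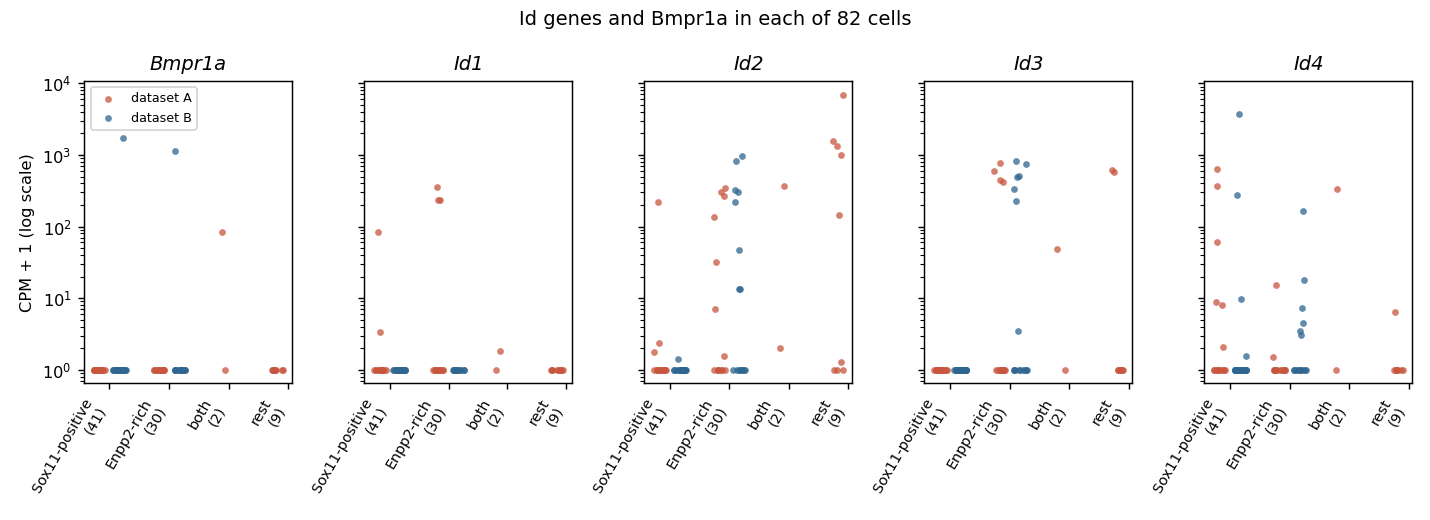
CPM + 1 on a log axis for each of the 5 genes, 1 point per cell, with cells divided by class along the x axis (number of cells in brackets) and coloured by dataset; sideways spread within a column only separates the points. Points at 1 are cells with no count. Id3 sat at 0 in all 41 Sox11-positive cells, and the 3 cells with Bmpr1a stood apart from 79 cells at 0.

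Id3 was found in Enpp2-rich cells of both datasets and in no Sox11-positive cell. How many of all genes show this pattern was not counted. In Enpp2-rich cells of dataset A, 4 of 14 held it, at 541, 1077, 1111 and 2158 counts (424 to 777 CPM). In dataset B, 6 of 16 held it, at 645, 652, 979, 1171, 1435 and 1911 counts (229 to 814 CPM), and 1 further cell had 4 counts. The cells with Id3 were far above the minimum of 10 counts in both sorts, while the remaining Enpp2-rich cells had no Id3 count. All 41 Sox11-positive cells were at 0, which allows a share of up to 7.32% of such cells by the rule of 3 over the number of cells (exact upper limit 8.60%). Enpp2-rich cells with Id3 made up 10 of 30 (33.3%, 17.3% to 52.8%). Among cells of neither class 2 of 9 held Id3, at 713 and 1604 counts, and the cell in well F6 that met both criteria held 57.

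Id2 was the most widely found of the 5, in 21 of 82 cells (25.6%, 16.6% to 36.4%). Enpp2-rich cells held it in 6 of 14 cells of dataset A, at 16, 87, 395, 532, 624 and 704 counts, and in 8 of 16 of dataset B, at 24, 24, 91, 461, 591, 716, 2117 and 2770. Together that is 14 of 30 (46.7%, 28.3% to 65.7%), and the counts ran far wider than those of Id3. Of 41 Sox11-positive cells 1 held Id2 (2.44%, 0.0617% to 12.9%), with 616 counts, and this was the cell in well G7 with the microglia markers. Without it, or with Sox11-positive cells required to have 100 or more Sox11 counts, 0 Sox11-positive cells held Id2, and 3 others had 1 or 2 counts. Whether the microglia markers have a part in this value was not tested. Cells of neither class held Id2 in 5 of 9 (55.6%, 21.2% to 86.3%), at 149, 1800, 2735, 2775 and 18121 counts, and 4 of these 5 lay above at least 12 of the 14 Enpp2-rich cells.

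A single cell, in well E8 of dataset A, gave 50.6% of the 35799 Id2 counts of all cells. Id2 stood at 6935 CPM there and ranked 10 among all its genes. The cell had no Id1, Id3, Id4 or Bmpr1a count. It had at most 2 markers of any list at 10 counts. Among its genes that reached 10 CPM in at most 4 other cells, Il2rg ranked 2 and Gata3 ranked 9 by level. Il2rg, the cytokine receptor common gamma chain, was at 7638 CPM. Gata3, a transcription factor of lymphoid and some neural cells, was at 2944 CPM and under 10 CPM in every other cell. Both were chosen after their values were seen. Of the other 4 cells of neither class with Id2, all had 10 or more of the 15 astroglial markers. The fifth cell with that many astroglial markers had 3 counts of Id4 and none of the other genes, at a depth of 546021.

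Id4 was present in 8 of the 9 Sox11-positive cells with an Id gene, over a wide range of counts. In dataset A, 5 of 16 Sox11-positive cells held it, at 10, 12, 32, 684 and 1115 counts, and in dataset B 3 of 25, at 13, 565 and 9262. Together that is 8 of 41 (19.5%, 8.82% to 34.9%). The cell with 1115 counts, in well G9, had 4197 genes with a count, the most of the 82 cells. It had 18032 Sox11 counts, and 14 of 15 neuroblast and 11 of 14 choroid plexus markers reached 10 counts in it. Whether G9 is 1 cell was not tested. The cell with 684 counts, in well C3, had only 49 Sox11 counts. With 100 or more Sox11 counts required, 7 of 39 Sox11-positive cells held Id4. Enpp2-rich cells held Id4 in 4 of 30 (13.3%, 3.76% to 30.7%), at 27 counts in dataset A and, in dataset B, at 14, 43 and 380, and these shares were not tested between the classes. Counts overlap: 4 of the 8 Sox11-positive cells with Id4 had 10 to 32 counts. The cell with 9262 counts (well A4 of plate P2, 3705 CPM) gave 94.1% of the Id4 counts of Sox11-positive cells in dataset B. It had 20653 Sox11 counts and 7 of 15 neuroblast markers, and 11 of 12 microglia markers reached 10 counts in it at 0.0193% of its counts in all. Its part in the Id4 value was not tested beyond leaving the cell out. With every cell thinned to 500000 counts, Id4 was left in 5 of 41 Sox11-positive and 1 of 30 Enpp2-rich cells. No cell of neither class held Id4 at 10 counts, and 1 had 3 counts.

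Id1 was found in 4 of 82 cells (4.88%, 1.34% to 12.02%), all of dataset A. The Enpp2-rich cells in wells F8, E9 and F9 held 482, 629 and 828 counts (234 to 357 CPM), and a Sox11-positive cell in well F7 held 44. That last cell was the shallowest of the 82, with 530630 counts, and also held 32 Id4 counts. It took 3.25% of its counts from astroglial markers, the most of its class, where the median was 0.0694%. From neuroblast markers it took 0.324%, against a class median of 3.53%. No cell of dataset B had an Id1 count, and with 1 sort per gate the datasets were not tested against each other; for 0 of 41 cells the same limits of 7.32% and 8.60% apply. The 3 Enpp2-rich cells with Id1 took 19.5% to 22.7% of their counts from Ttr (transthyretin, made by the choroid plexus) and 22.3% to 27.2% from Enpp2, which lay inside the ranges of the other 27 Enpp2-rich cells (1.38% to 69.3% and 1.25% to 29.1%).

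**Figure D2:**
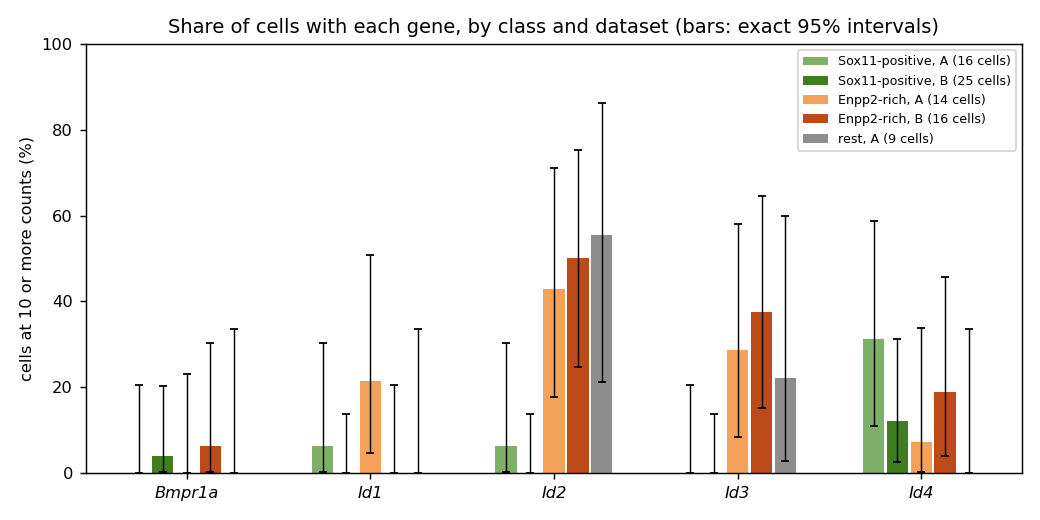
Percent of cells with 10 or more counts of each gene, with bars for class and dataset and exact 95% intervals (counting error only). Id2 and Id3 were found in larger shares of Enpp2-rich than of Sox11-positive cells in both datasets, and Id1 only in dataset A.

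At least 1 Id gene reached 10 counts in 21 of 30 Enpp2-rich cells (70.0%, 50.6% to 85.3%), against 9 of 41 Sox11-positive cells (22.0%, 10.6% to 37.6%). Within dataset A the shares were 71.4% of Enpp2-rich and 37.5% of Sox11-positive cells, and within dataset B 68.8% and 12%, so the classes kept their order within each sort. With the G7 and H6 cells left out (a choice made after seeing the data), 8 of 39 Sox11-positive cells had an Id gene. With all cells thinned to 500000 counts, the figures were 19 of 30 and 6 of 41. Cells of neither class had an Id gene in 5 of 9 (55.6%, 21.2% to 86.3%).

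Id genes were combined differently from cell to cell. Among Enpp2-rich cells, 6 had Id2 alone, 3 Id3 alone, 5 Id2 with Id3, 2 Id1 with Id2, 2 Id4 alone, 1 Id1 alone, 1 Id3 with Id4 and 1 Id2, Id3 and Id4. The last, in well H4 of plate P1, had 716, 1911 and 380 counts of these and the lowest Enpp2 share of its class, 1.25%. Over all cells Id2 and Id3 met in 9, which is 42.9% of the 21 cells with Id2 and 69.2% of the 13 with Id3. Id1 and Id3 met in 0 cells at this minimum, and no cell held all 4. In Enpp2-rich cells of dataset A, Id1 was found in 3 and Id3 in 4 of 14. With so few cells, the lack of shared cells was not tested and is not read as a result. In Sox11-positive cells 7 had Id4 alone, 1 Id1 with Id4, 1 Id2 alone and 32 none.

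**Figure D3:**
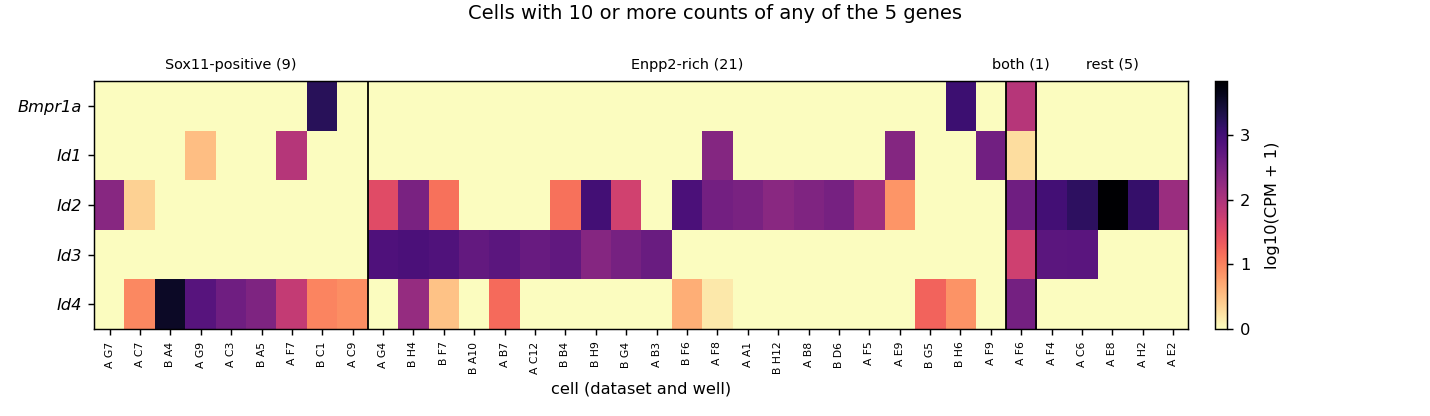
Colour shows log10(CPM + 1) of the 5 genes (rows) in the 36 cells with 10 or more counts of any of them (columns, named by dataset and well and grouped by class). Id3 columns belong to Enpp2-rich cells, the F6 cell and cells of neither class, and the highest Id4 level is in a Sox11-positive cell.

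The F6 cell held the broadest set of the 82: Bmpr1a at 97 counts, Id2 at 441, Id3 at 57 and Id4 at 396, with 1 count of Id1. It met both criteria, with 85 Sox11 counts and 1.93% of its counts from Enpp2. It had 14 of 15 astroglial, 8 of 14 choroid plexus and 5 of 15 neuroblast markers at 10 counts and 3181 genes with a count. No doublet caller was run, and whether it is 1 cell was not tested. The other cell that met both criteria, in well E10, had 3 counts of Id2 and none of the other 4.

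Plates were uneven over the classes of dataset B: PL4 held 10 Enpp2-rich and 4 Sox11-positive cells, P3 4 and 3, P1 2 and 12, and P2 0 and 6. Enpp2-rich cells with Id2 numbered 2 on P1, 2 on P3 and 4 on PL4, and those with Id3 numbered 2, 1 and 3, so both genes were found on every plate with such cells. On the same 3 plates, 0 of 19 Sox11-positive cells held Id2 or Id3. Within the Enpp2-rich class, cells with and without Id3 overlapped in Ttr share (1.38% to 20.3% against 2.40% to 69.3%), in depth and in genes with a count (899 to 3817 against 877 to 2134).

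The cells of each class were then pooled by dataset, for 2 pools per class, and the summed counts were compared by edgeR's quasi-likelihood test over 7189 genes. The dataset, not the cell, is the replicate here, and each dataset is 1 sort, so p-values measure the spread between these pools. No gene passed an adjusted p of 0.05 (0%), while 1015 (14.1%) had an unadjusted p under 0.05, and DESeq2 called 3173 of 13099 (24.2%). Left without the Sox11-positive pool of dataset A, edgeR called 198 of 9845 genes (2.01%), and without that of dataset B 111 of 8626 (1.29%). All 5 genes were tested, none passed, and 1 (Id3) was under 0.05 unadjusted. Both Enpp2-rich pools lay above both Sox11-positive pools for Id2 and Id3, against 13.9% of all genes tested. The opposite held for Id4, against 35.5% of all genes. The median log2 difference of the 5 was 3.91, and that of all genes tested was -0.50, so differences are to be read against that shift.

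Id3 stood at 132 CPM (dataset A) and 197 CPM (dataset B) in the Enpp2-rich pools and at 0 in both Sox11-positive pools. Against a floor of 3 counts over the class, Id3 was at least 4402-fold higher in Enpp2-rich cells in read counts. That figure covers read counting only: PCR reads are not independent molecules, and the reads of Id3 came from few cells, so it is no bound on the difference in mRNA. The fitted log2 difference was 15.95 (SE 2.77, edgeR adjusted p = 0.223), which with a class at 0 depends on the prior count and is no bound. Its adjusted p ran from 6.49e-05 to 0.429 over the alternatives, and it passed with DESeq2 (6.49e-05), which called 24.2% of genes, and with no filter on low counts (0.00832), where edgeR called 2.83%. Without the cell with the most Id3 counts in each pool, the Enpp2-rich pools were at 79.9 and 152 CPM.

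Id2 stood at 63.9 CPM (dataset A) and 197 CPM (dataset B) in the Enpp2-rich pools, against 21.1 and 0.0195 CPM in the Sox11-positive pools. Its log2 difference came to 3.91 (SE 3.02, edgeR adjusted p = 0.759). This value rests on the G7 cell: it was 10.87 without that cell (edgeR adjusted p = 0.252) and 10.90 with Sox11 at 100 or more counts (0.302), and the adjusted p ran from 0.252 to 0.848 over the alternatives. Without the G7 cell the Sox11-positive pool of dataset A was at 0.150 CPM, and without their own top cells the Enpp2-rich pools were at 47.4 and 127 CPM. Id4 was at 0.758 and 13.2 CPM in the Enpp2-rich pools, against 63.0 and 192 CPM in the Sox11-positive pools. Without the cell with 1115 counts, the Sox11-positive pool of dataset A was at 26.7 CPM. The fit gave Id4 a log2 difference of -3.98 (SE 2.41, edgeR adjusted p = 0.596). Without the single cell with 9262 counts, the Sox11-positive pool of dataset B was at 11.9 CPM, just under the Enpp2-rich pool, and without the H4 cell the latter was at 2.30 CPM.

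Bmpr1a and Id1 gave no stable direction. Bmpr1a was at 0 in both pools of dataset A and at 72.4 (Enpp2-rich) and 50.2 CPM (Sox11-positive) in dataset B, each from 1 cell, with a log2 difference of 0.74 (SE 4.54, edgeR adjusted p = 0.997). Leaving out the Sox11-positive pool of dataset A gave -0.25 and leaving out the Enpp2-rich pool of dataset B gave -12.68. Id1 was at 52.5 CPM in the Enpp2-rich and 1.63 CPM in the Sox11-positive pool of dataset A and at 0 in both pools of dataset B. Without its top cell the Enpp2-rich pool of dataset A was at 32.1 CPM. The fitted log2 difference of Id1 was 5.91 (SE 5.48, edgeR adjusted p = 0.844), but -8.02 without the Enpp2-rich pool of dataset A.

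Divided by transcript length in kilobases, levels can be set side by side between genes. In the Enpp2-rich pools of datasets A and B, Id3 led at 104 and 154 CPM per kilobase. Id2 followed at 25.9 and 79.99 CPM per kilobase, with Id1 at 45.5 and 0, Bmpr1a at 0 and 11.9, and Id4 at 0.190 and 3.30. Id1 and Id2 changed places between the datasets. Each without its own top cell, Id3 was at 62.5 and 119 CPM per kilobase in these pools, Id2 at 19.3 and 51.6, Id1 at 27.8 and 0, Id4 at 0.00714 and 0.576, and Bmpr1a at 0 in both, so Bmpr1a and Id4 changed places in dataset B. In the Sox11-positive pools, Id4 stood at 15.8 and 48.0 CPM per kilobase, Id2 in dataset A at 8.56 (from the G7 cell) and Bmpr1a in dataset B at 8.26 (from 1 cell). Without the cell with the most Id4 counts in each pool, Id4 was at 6.69 and 2.97 CPM per kilobase. Treated alike, each without its own top cell, the other 4 genes were at 0 to 0.12 CPM per kilobase there. Id4 thus kept the highest value in the Sox11-positive pools at a lower level. That level again rested mostly on 1 cell per pool. These were the cell in well C3 of dataset A, with 684 Id4 counts, and that in well A5 of plate P1, with 565. The C3 cell held 49 Sox11 counts.

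The pathway around these genes was thinly measured. Of 66 BMP pathway genes and partners, 28 had a row in the table and 23 reached 10 counts in at least 1 cell. Of 16 tested in the pools none passed. Both Enpp2-rich pools lay above the Sox11-positive pools for Msx1, Sostdc1 and Tcf12, 3 of the 16 (13.9% of all genes tested) and below for 6 (35.5% of all genes), so both counts were near the share of all genes. The median log2 difference of the 16 was -0.13, and that of all genes tested -0.50. The 10 genes found in 10 or more cells are described by role.

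Among ligands, Gdf11, a growth factor of the same superfamily, was found in 6 of 41 Sox11-positive and 5 of 30 Enpp2-rich cells. Rgmb, a membrane-anchored BMP co-receptor, was found in 13 of 41 Sox11-positive (31.7%, 18.1% to 48.1%) and 2 of 30 Enpp2-rich cells (6.67%, 0.818% to 22.1%). Its pools stood at 335 and 185 CPM in Sox11-positive and 0.975 and 3.33 CPM in Enpp2-rich cells, a log2 difference of -6.58 (SE 1.76, edgeR adjusted p = 0.262). Without the top cell of each pool, Rgmb was at 185 and 108 CPM in the Sox11-positive pools and at 0 in both Enpp2-rich pools. Rgmb was therefore found in more Sox11-positive cells than Bmpr1a or any Id gene was.

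Smad4, the partner shared by all receptor-activated SMADs, was found in 6 of 41 Sox11-positive and 2 of 30 Enpp2-rich cells. Skil, a repressor bound by SMADs, was found in 9 and 6. Fkbp1a, which binds type I receptors and holds them inactive, was found in 16 and 14. The shares of these 3 were not tested between the classes.

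Sostdc1, a secreted BMP antagonist and one of the choroid plexus markers, was found in 27 of 30 Enpp2-rich cells (90%, 73.5% to 97.9%) and 5 of 41 Sox11-positive cells (12.2%, 4.08% to 26.2%). Enpp2-rich pools stood at 1946 and 1781 CPM and Sox11-positive pools at 166 and 0.0195 CPM, a log2 difference of 5.03 (SE 3.10, edgeR adjusted p = 0.607). The H6 cell gave 98.2% of the Sostdc1 counts in the Sox11-positive pool of dataset A. Without it, 4 of 40 Sox11-positive cells held Sostdc1, that pool was at 3.53 CPM and the fit gave 10.76 on the log2 scale (SE 2.83, edgeR adjusted p = 0.231). The antagonist was thus found in more Enpp2-rich cells than any Id gene was.

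Msx1, a homeobox gene that BMP signals are known to switch on, was found in 14 of 30 Enpp2-rich cells (46.7%, 28.3% to 65.7%), 3 of 14 in dataset A and 11 of 16 in dataset B, and was at 0 counts in all 41 Sox11-positive cells. Its Enpp2-rich pools stood at 56.8 and 389 CPM, at least 5846-fold higher in reads than the floor of 3 counts over the Sox11-positive class, with the same limit as for Id3 (edgeR adjusted p = 0.223). In dataset A 1 cell gave 57.6% of its counts, and without the top cell of each pool Msx1 was at 25.6 and 298 CPM. Msx1, like Id3, was found in Enpp2-rich cells of both datasets and in no Sox11-positive cell, a pattern not counted over all genes. Cells of neither class had Id2 and Id3 but no Msx1.

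Tcf4, an E protein that Id proteins bind, was found in 37 of 41 Sox11-positive cells (90.2%, 76.9% to 97.3%) and 4 of 30 Enpp2-rich cells (13.3%, 3.76% to 30.7%). Its Sox11-positive pools stood at 2220 and 1807 CPM against 2.65 and 47.3 CPM, a log2 difference of -6.18 (SE 1.54, edgeR adjusted p = 0.238). Without the top cell of each pool, Tcf4 was at 2002 and 1623 CPM against 0.202 and 21.3 CPM. Tcf12, another E protein, was found in 5 Sox11-positive and 5 Enpp2-rich cells, with pools at 83.3 and 187 CPM in Enpp2-rich and 22.6 and 18.3 CPM in Sox11-positive cells. Without the top cell of each pool, the order of Tcf12 turned in dataset A. It was then at 0.0290 CPM in the Enpp2-rich and 11.1 CPM in the Sox11-positive pool. In dataset B the order held, at 69.2 CPM in the Enpp2-rich and 0.0200 CPM in the Sox11-positive pool. Hes6, a helix-loop-helix factor that favours neuronal differentiation, was found in 8 and 7.

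**Figure D4:**
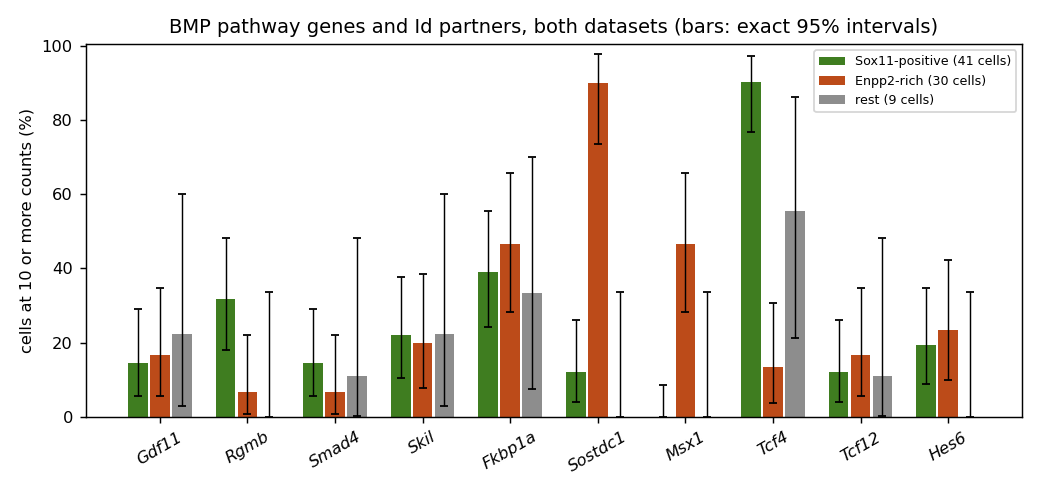
Percent of cells with 10 or more counts of the 10 pathway genes found in 10 or more cells, by class, both datasets together, with exact 95% intervals (counting error only). Sostdc1 and Msx1 were found mostly in Enpp2-rich cells, and Tcf4 and Rgmb mostly in Sox11-positive cells.

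Genes whose levels ran most like those of each of the 5 were ranked by Pearson's r of log2(CPM + 1) over the 82 cells, among 3244 genes at 10 or more counts in 10 or more cells. Cells of 1 sort are not replicates, and depth differed between cells, so r is a description. The best match of Id3 was Trpm3, a cation channel gene (r = 0.60), followed by Mt3, a brain metallothionein (0.58), Vamp8 (0.52), Cpne2 (0.51) and Sgms2 (0.51). Trpm3 and Mt3 were each found in all 13 cells with Id3 and in 32 cells overall. For Id2 the nearest were Hadha and Eci1, both enzymes of fatty acid oxidation (both 0.53), then Vamp8 (0.53), Larp1b (0.49) and Mbnl2 (0.49).

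Id1 ran most like Ccdc107 (r = 0.58), Lipa, the lysosomal acid lipase (0.56), Atp1b3 (0.50), Ctsc (0.48) and Chpt1 (0.45), all resting on 4 cells with Id1. Id4 had weaker matches in Ash1l (0.47), Tnrc6a (0.46), Psip1 (0.45), Ubap2l (0.45) and Ankle2 (0.45). Bmpr1a, with 3 cells, ran most like Kansl2 (0.49), Washc4 (0.44), Nxf1 (0.44) and Ptgr2 (0.44). Id2, Id3 and Id4 entered the ranking themselves, and none was among the nearest of the others; r between Id2 and Id3 was 0.34 over all cells and 0.05 within the 30 Enpp2-rich cells.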

How the data were processed

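The deposited table holds unnormalized read counts (whole numbers, unequal cell totals) of each gene in 82 sorted cells, whose libraries were made by template switching and PCR per the labels' protocols. The submitters' processing notes name FastQC 0.12.1, STAR 2.7.10b, featureCounts and Subread 2.1.1 and the builds GRCm39 and mm10, with no role stated for either, so the build behind the counts is not known. Counting by strand and gene or cell filters are not given in the sources used here.

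The 5 genes, the classes, the pathway list and the marker lists were chosen with earlier results of these data known. A gene was called found at 10 or more counts, and shares have exact Clopper-Pearson 95% intervals. Pools summed the counts of a class within a dataset and left out the 2 cells that met both criteria. They were compared with edgeR 4.0.16 (glmQLFTest, filterByExpr, TMM, two-sided, Benjamini-Hochberg adjustment over all genes tested, threshold 0.05) in R 4.3.3. The script was tested on simulated pools with far less spread than the real pools, whose median dispersion was 3.32. That test therefore does not show the power of the comparison here. The labels give 1 sort per dataset, which pairs its pools; over 7189 genes, deviations from the class mean had a correlation of 0.316 between paired pools. Alternatives were a block for dataset, DESeq2 1.42.0, other scalings and filters, other class limits, single pools or cells left out, and cells thinned to 500000 counts. Named were the 5 genes, pathway genes at 10 or more counts in 10 or more cells, and the 5 genes most like each of the 5, of which 1 is not reported here. Gene models came from GENCODE vM39 and promoters from RefSeq. Other tools were limma 3.58.1, Python 3.11.15, numpy 2.4.6, pandas 2.3.3, scipy 1.17.1 and matplotlib 3.10.9. The deposited run list was left aside.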

Additional observations from a re-analysis of the deposited data

Results flagged for a closer look

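For 3 of the 10 pathway genes found in 10 or more cells, the Enpp2-rich pool lay on opposite sides of the Sox11-positive pool in the 2 datasets. The share of all genes tested that changed sides was not counted. The differences are in CPM, Enpp2-rich minus Sox11-positive, and whether the datasets differ was not tested, since each holds 1 pool per class. Gdf11 differed by -22.5 in dataset A and 42.9 in dataset B. Fkbp1a differed by -113.6 in dataset A and 78.4 in dataset B. Hes6 differed by 41.9 in dataset A and -20.9 in dataset B. In dataset A, 1 cell gave 99.7% of the Gdf11 counts of the Enpp2-rich pool, and 1 cell all of the Hes6 counts of the Sox11-positive pool. For Fkbp1a, 1 cell gave 68.8% of the counts of the Enpp2-rich pool of dataset A. Of the pathway genes found in fewer cells, Smad5 and Tcf3, named after their values were seen, also changed sides. Smad5 stood at 0.0271 CPM (Enpp2-rich) and 210 CPM (Sox11-positive) in dataset A and at 118 and 75.1 CPM in dataset B. In dataset B, 1 cell gave 73.3% of its Enpp2-rich counts and 1 cell 97.3% of its Sox11-positive counts. Tcf3 stood at 74.2 and 1.56 CPM in dataset A and at 3.13 and 4.02 CPM in dataset B. All Tcf3 counts of the Enpp2-rich pool of dataset A came from 1 cell, so its change of sides rests on that cell. None of the 5 main genes changed sides.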

How the results depend on the processing

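The count of genes past the threshold was 0 under 12 of 16 alternatives (all edgeR fits), 371 with no filter on low counts and 3173 with DESeq2, and ran from 0 to 198 when single pools were left out (198 without the Sox11-positive pool of dataset A, 111 without that of dataset B). Those fits take the spread of the lone pool from the other class. With the dataset as a block the count was 0, with 608 genes at an unadjusted p under 0.05, and no call on the 5 genes changed. Of 79 log2 differences of the 5 genes under alternatives, 74 kept their direction and side of the threshold, and 2 (Id3 with no filter, 15.94, and with DESeq2, 15.50) newly passed it. The 3 that turned were -0.25 and -12.68 for Bmpr1a, which ran from -12.68 to 12.99 over the pools left out, and -8.02 for Id1, which ran from -8.02 to 13.86; the cause was not tested beyond the cells each pool rests on. The median log2 difference of all genes was -0.50 with TMM, -0.64 with RLE factors, -0.96 with library size alone and -0.78 with the block, -1.23 with no filter and -1.03 with DESeq2, and ran from -7.42 to 0.44 over the pools left out (0.44 without the Sox11-positive pool of dataset B, -7.42 without the Enpp2-rich pool of dataset B), so this shift itself depends on single pools. Leaving out the G7 or H6 cell, chosen after seeing the data, left the count at 0. Of 144 shares of cells 139 moved by less than their interval; the 5 others concern Id1 (0% of Sox11-positive cells at 100 or more counts), Id2 (0% without G7 or with 100 or more Sox11 counts) and Id4 (3.33% of Enpp2-rich cells when thinned or at 100 or more counts). Pooled levels of the 5 genes rested on few cells. The median of the cells was at most 6.17 CPM in every pool (Id2, Enpp2-rich, dataset B). Leaving out the cell with the most counts of the gene lowered every level above 0. Without Ttr and Enpp2 in the total, Id3 stood at 244 and 246 CPM in the Enpp2-rich pools of datasets A and B. Id2 stood at 118 and 246 CPM there, and Id1 at 96.8 CPM in that of dataset A.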
